A study of Mus musculus with 8 samples.

Results

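The let-7 family was followed through the purification of the chromatoid body, the RNA and protein granule that haploid male germ cells carry in their cytoplasm. Its members were the 8 genes Mirlet7b, Mirlet7d, Mirlet7e, Mirlet7g, Mirlet7i, Mirlet7f-1, Mirlet7f-2 and Mirlet7c-2, chosen by name and each listed in all 5 deposited tables. They are 8 of the 149 microRNA genes, and of the 681 features, listed in all 5. The first 5 are called single-copy here, since their mature sequence stood in 1 hairpin of the RefSeq table, and the other 3 numbered copies, since theirs stood in 2. A further 4 let-7 genes, Mirlet7a-1, Mirlet7a-2, Mirlet7c-1 and Mir98, were also listed in all 5 and are given for comparison only.

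Small RNA of 19 to 33 nt was sequenced in 8 libraries of 7 groups from testes of C57BL/6 mice aged at least 6 weeks. Seminiferous tubule cells were fixed with formaldehyde and sonicated, which gave the lysate. The lysate was spun into a supernatant and a pellet (pellet1), and pellet1 was sonicated again, filtered and spun to give pellet2. The immunoprecipitations (IPs) used a rabbit antibody to MVH, the vasa homolog DDX4 and a chromatoid body protein, or to the acrosomal protease acrosin (ACR) as the control. The last group was round spermatids sorted from testes and labelled hetMIWI, and no label says more of that genotype. MVH IP had 2 libraries, reported by the authors in 1 column, and each other group had 1. The pellet column is tied by the labels to both pellet1 and pellet2, so it is given as the authors' pellet value. No group therefore had a spread between replicates, the differences below compare libraries, and errors are counting errors only.

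A let-7 microRNA is cut by Dicer from a short hairpin and loaded into an Argonaute protein, which it guides to messenger RNA through its seed, bases 2 to 8 from the 5′ end. The family is known for high levels in differentiated cells and for its block by LIN28 in stem cells, spermatogonial stem cells included. Its members differ outside the seed, and some mature sequences are made from several hairpins.

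The mature 5p sequences are shown because they decide which reads can be told apart. All 8 members matched RefSeq (GRCm38.p6) and gave 7 mature sequences with 1 seed, printed in capitals.
let-7b-5p: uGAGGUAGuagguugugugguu
let-7c-5p: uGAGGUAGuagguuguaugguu
let-7d-5p: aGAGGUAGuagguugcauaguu
let-7e-5p: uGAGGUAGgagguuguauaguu
let-7f-5p: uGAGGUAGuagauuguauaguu
let-7g-5p: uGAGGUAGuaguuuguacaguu
let-7i-5p: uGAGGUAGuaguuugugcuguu
Positions are counted from 1 at the 5′ end, with the base of let-7c-5p written before the position. let-7b-5p differed from let-7c-5p by A17G alone, let-7e-5p by U9G and G19A, let-7f-5p by G12A and G19A, and let-7d-5p by U1A, U16C and G19A. let-7g-5p differed by G12U, U18C and G19A, and let-7i-5p, the most distant from let-7c-5p, by G12U, A17G, U18C and G19U. let-7a-5p, of the other let-7 genes, differed from let-7c-5p by G19A alone.

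The hairpins of the f copies are shown because the same mature 5p sequence, in capitals, sits in different flanks and opposite different 3p arms.
Mirlet7f-1: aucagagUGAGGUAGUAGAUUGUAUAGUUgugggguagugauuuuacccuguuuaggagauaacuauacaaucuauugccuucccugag
Mirlet7f-2: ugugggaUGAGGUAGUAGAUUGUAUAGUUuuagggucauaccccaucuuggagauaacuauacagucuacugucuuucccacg
A read of let-7f-5p matches both genes, whereas a read of a 3p arm (let-7f-1-3p, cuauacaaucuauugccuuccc, or let-7f-2-3p, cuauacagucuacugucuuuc) matches 1 of them. let-7c-5p likewise stood in the hairpins of Mirlet7c-1 and Mirlet7c-2.

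In the files' mm9 coordinates, counted from 1, Mirlet7c-2 (chromosome 15, 85537033 to 85537127) lay 621 bases before Mirlet7b (chromosome 15, 85537749 to 85537833). Mirlet7d (chromosome 13, 48631381 to 48631483) and Mirlet7f-1 (chromosome 13, 48633198 to 48633286) lay 1714 bases apart, with Mirlet7a-1 close after Mirlet7f-1. Mirlet7e (chromosome 17, 17967316 to 17967408) and Mirlet7i (chromosome 10, 122422696 to 122422780) had no other let-7 gene beside them. The locus given for Mirlet7g (chromosome 9, 106073260 to 106094037) was that of the protein gene Wdr82, and the locus given for Mirlet7f-2 and Mir98 (chromosome X, 148237825 to 148369961) was that of the ubiquitin ligase gene Huwe1; both microRNA genes are known to lie in introns of these hosts.

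Values are FPKM, fragments scaled to feature length and library size, and since each table was scaled on its own, levels are set across tables as shares of the summed FPKM of all microRNA genes of a column. microRNA genes held 84.9% of the ACR IP column and 92.5% to 98.6% of the others. Read numbers were not used as such. In the supernatant table they were derived from the authors' test statistic, and a supernatant read was worth 0.667 of a lysate read. The lysate values of the members then rested on 376 reads (Mirlet7e) to 5540 reads (Mirlet7c-2). An ACR IP read was worth 10 lysate reads, so that library is shallow. The depth of the MVH IP and round spermatid columns is unknown.

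In the lysate the family was abundant, with its 8 members at 5.77% of microRNA FPKM and all 12 let-7 genes at 8.47%. How reads that match several copies were counted is not known, so family sums here and below may hold a read more than once. Mirlet7g was highest at 290100 FPKM (lysate column beside the supernatant), Mirlet7b followed at 252752 and Mirlet7c-2 at 251740. Mirlet7i was at 117506, Mirlet7f-2 at 104601, Mirlet7f-1 at 77599, Mirlet7d at 51378 and Mirlet7e at 17937 FPKM. Of the 7 steps down this order, the 1 between Mirlet7b and Mirlet7c-2 was within counting error (log2 difference 0.01, SE 0.030). The others were at least 0.17 on the log2 scale, with 95% counting intervals above 0. Among them, the step from Mirlet7f-2 to Mirlet7f-1 (0.43, SE 0.053) is between copies that share let-7f-5p reads. Its interval takes the copies as independent, so it does not measure a difference in their abundance. Among the 386 microRNA genes listed there, Mirlet7g ranked 15, Mirlet7b 18 and Mirlet7e 114.

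The FPKM of short genes depends strongly on their length. A lysate read was worth 33.8 FPKM in the longest hairpin, Mirlet7d with 103 bases, and 66.8 FPKM in the shortest, Mirlet7f-2 with 83 bases. By implied reads the order was led by Mirlet7c-2 (5540), Mirlet7g (5126) and Mirlet7b (3895), and Mirlet7d (1521) lay beside Mirlet7f-2 (1566) and Mirlet7f-1 (1454). Mirlet7f-2 stood 1.35 times above Mirlet7f-1 in FPKM in the lysate and the supernatant, 1.31 times in the pellet, and 1.38 times in both MVH IP and round spermatids. Mirlet7c-1 was at 0.94 to 1.04 times Mirlet7c-2 in the same 5 columns. The copies of 1 mature sequence are therefore given below as 1 measurement made in different genes, not as independent ones.

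**Figure D1:**
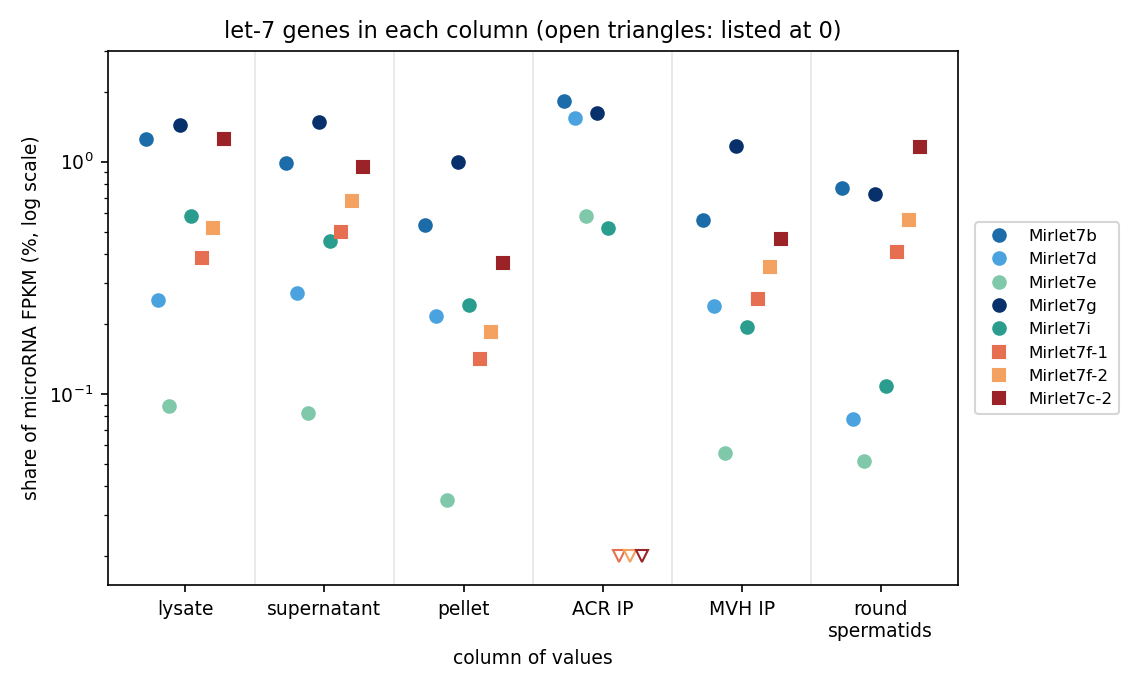
Share of microRNA FPKM (percent, log scale) of the 8 let-7 genes in 6 columns, with circles for single-copy members, squares for numbered copies and open triangles for values listed at 0; each point is 1 column value with no replicate. Mirlet7g leads the lysate, supernatant, pellet and MVH IP columns, and Mirlet7c-2, at 1.16%, leads the round spermatids.

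The lysate library appears in 3 tables, and the numbered copies differed between them. This difference chose the contrast, so it is a description. From the supernatant to the pellet table, the lysate value of each of the 8 members was multiplied by 2.39, as for the 2786 features listed in both. From the supernatant to the ACR IP table, the single-copy members were multiplied by 2.03 (Mirlet7b), 2.08 (Mirlet7d), 2.03 (Mirlet7e), 2.08 (Mirlet7g) and 1.97 (Mirlet7i), beside a median of 2.08 over 291 microRNA genes. The numbered copies went the other way.

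Mirlet7f-1 had 77599 FPKM in the lysate column beside the supernatant and 1916 FPKM in the one beside the ACR IP, 40.5 times lower. Mirlet7c-2 went from 251740 to 10568, 23.8 times lower, and Mirlet7f-2 from 104601 to 16939, 6.18 times lower. Mirlet7f-2 therefore stood 8.84 times above Mirlet7f-1 in that column, against 1.35 times elsewhere in the lysate. Of the other let-7 genes, Mirlet7a-1, Mirlet7a-2 and Mirlet7c-1 had ratios of 0.033 to 0.040, while Mir98, whose mature sequence stands in 1 hairpin, was multiplied by 1.90.

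The same split ran through the microRNA genes of that table. In all, 34 of 291 had a ratio below 0.5, of which 6 were let-7 genes. Of the 34, 31 had a RefSeq entry, and all 31 held a mature sequence found in the hairpins of 2 or more genes. Of the other genes, 223 had an entry and 10 of them held such a sequence. Whether the ACR IP table left out reads that match several places was not tested.

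**Figure D2:**
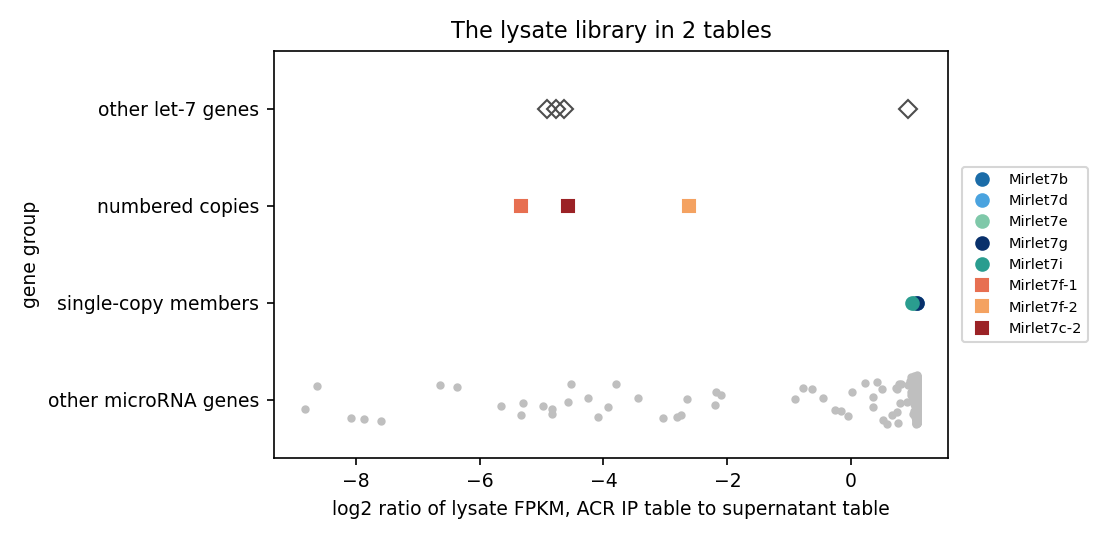
log2 ratio of lysate FPKM in the ACR IP table to that in the supernatant table, for the 5 single-copy members, the 3 numbered copies, the 4 other let-7 genes and the other microRNA genes (each point 1 gene, jittered vertically; genes listed at 0 in the ACR IP table's lysate are not drawn). The single-copy members lie with the bulk of microRNA genes near a ratio of 2.08, and the numbered copies lie at ratios of 0.025 to 0.16.

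The supernatant was compared with the lysate to see which small RNAs stayed in solution. All 8 members were above the lysate, by log2 ratios of (FPKM + 1) from 0.05 to 0.83 with a median of 0.41. No member was 2-fold higher, a size reached by 7.16% of all features and 15.5% of microRNA genes. A log2 ratio above 0 was found in 53% of all features and 62.4% of microRNA genes, and the microRNA median was 0.21. Relative to that median 5 members lay above and 3 below. As a share of microRNA FPKM, 4 of 8 members (Mirlet7b, Mirlet7e, Mirlet7i and Mirlet7c-2) were below the lysate. So were 63.2% of the 163 microRNA genes above 0 in the lysate, supernatant, pellet, MVH IP and round spermatid columns. The 8 members together held 5.40% of microRNA FPKM in the supernatant against 5.77% in the lysate.

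The f copies were highest. Mirlet7f-2 was at 185510 FPKM in the supernatant against 104601 in the lysate (log2 ratio 0.83, SE 0.043) and Mirlet7f-1 at 137198 against 77599 (0.82, SE 0.044). Mirlet7d followed with 74993 against 51378 FPKM (0.55, SE 0.045), then Mirlet7g with 406688 against 290100 (0.49, SE 0.024) and Mirlet7e with 22646 against 17937 (0.34, SE 0.092). Mirlet7b, Mirlet7i and Mirlet7c-2 lay near the lysate. Mirlet7b was at 270062 against 252752 FPKM (0.10, SE 0.029), Mirlet7i at 125440 against 117506 (0.09, SE 0.043) and Mirlet7c-2 at 261170 against 251740 (0.05, SE 0.025).

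Steps between members next to each other in this order were set against counting error. The steps from Mirlet7f-1 to Mirlet7d (0.28, SE 0.063) and from Mirlet7e to Mirlet7b (0.24, SE 0.097) had 95% intervals above 0, and the other 5 steps between neighbours did not. Of the genes beside each other on chromosome 13, Mirlet7d lay 0.28 below Mirlet7f-1 (95% counting interval of the difference -0.40 to -0.15). On chromosome 15 the difference of Mirlet7b from Mirlet7c-2 was 0.04 (interval -0.03 to 0.12). Reads of let-7f-5p also match Mirlet7f-2, and those of let-7c-5p also match Mirlet7c-1. These differences therefore compare mature sequences and do not measure genes of 1 locus alone. In the authors' deposited table Mirlet7f-1, Mirlet7f-2, Mirlet7d and Mirlet7g were called higher, 4 of 8, beside 0.96% of all features and 10.9% of microRNA genes. With a q-value under 0.05 by the authors' deposited table, 6 of 8 were higher, beside 3.82% and 24.6%.

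After these values were seen, the order was read against the mature sequences. The 5 members with A at position 19 (Mirlet7d, Mirlet7e, Mirlet7f-1, Mirlet7f-2 and Mirlet7g) had ratios of 0.34 to 0.83, and the 3 with another base there, G in let-7b-5p and let-7c-5p and U in let-7i-5p, had 0.05 to 0.10. Mirlet7a-1 and Mirlet7a-2, with A, were both at 0.57, and Mirlet7c-1, with G, at 0.06. Mir98, with U, was the exception at 0.73 (SE 0.17). These are 9 mature sequences in 1 pair of libraries, and no test was made.

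**Figure D3:**
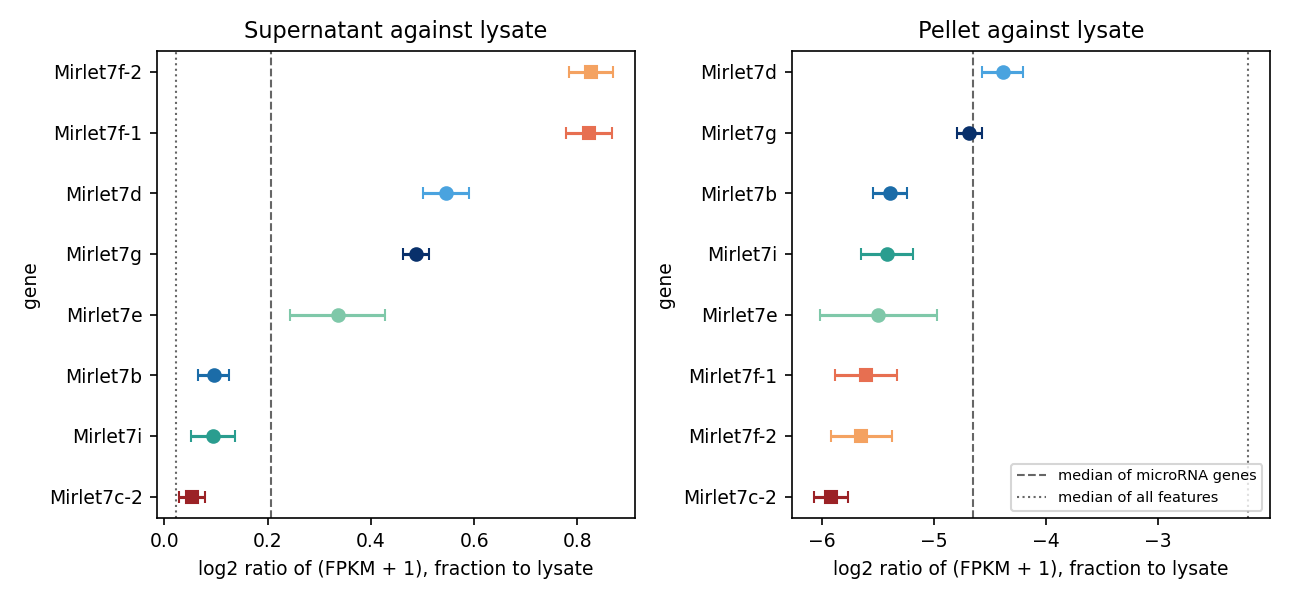
log2 ratio of (FPKM + 1) of the supernatant (left) and the pellet (right) to the lysate for each of the 8 members, with bars of 1 counting SE; circles are single-copy members, squares numbered copies, the dashed line the median of microRNA genes and the dotted line that of all features. The f copies lead on the left at 0.82 and 0.83, and Mirlet7d and Mirlet7g lead the 8 on the right at -4.39 and -4.68.

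The pellet comparison showed what stayed with the material from which the granule is purified. All 8 members were far below the lysate, with log2 ratios from -5.92 to -4.39 and a median of -5.46. All 8 were at least 2-fold lower, as were 86.5% of all features and 93.4% of microRNA genes, and all 8 were called lower in the authors' deposited table, beside 18.7% and 34.7%. The microRNA median was -4.65, and 7 of 8 members lay below it.

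Mirlet7d and Mirlet7g were retained most. Mirlet7d was at 5867 FPKM in the pellet against 122809 in the lysate (log2 ratio -4.39, SE 0.18), and Mirlet7g at 26969 against 693435 (-4.68, SE 0.11). The other single-copy members were lower, with Mirlet7b at 14378 against 604161 FPKM (-5.39, SE 0.15), Mirlet7i at 6564 against 280879 (-5.42, SE 0.23) and Mirlet7e at 949 against 42875 (-5.50, SE 0.52).

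The numbered copies had the lowest ratios of the 8. Mirlet7f-1 was at 3813 against 185486 FPKM (-5.60, SE 0.28), Mirlet7f-2 at 4984 against 250032 (-5.65, SE 0.27) and Mirlet7c-2 at 9947 against 601741 (-5.92, SE 0.15). Of the 7 steps in this order, the step from Mirlet7g to Mirlet7b (0.71, SE 0.19) had a 95% interval above 0, and the other 6 did not. The values of genes beside each other separated here, although reads of let-7f-5p and let-7c-5p also match copies at other loci. Mirlet7d lay above Mirlet7f-1 by 1.22 (interval 0.57 to 1.87), the opposite of the supernatant, and Mirlet7b above Mirlet7c-2 by 0.53 (0.10 to 0.95). Of the other let-7 genes, Mirlet7a-1 was at -4.47 (SE 0.13) and Mirlet7a-2 at -4.48 (SE 0.13), above Mirlet7g, Mirlet7c-1 was at -5.91 (SE 0.16), and Mir98 was lowest at -6.05 (SE 1.45).

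The family's share of microRNA FPKM was smaller in the pellet, at 2.71% against 5.77% in the lysate and 5.40% in the supernatant. The single-copy members held 2.02% of it and the numbered copies 0.69%, against 3.62% and 2.15% in the lysate. Each of the 8 members had a lower share than in the lysate, as did 61.3% of the 163 microRNA genes above 0 in the lysate, supernatant, pellet, MVH IP and round spermatid columns.

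The control IP gave few let-7 reads. Single-copy members were detected and numbered copies were all listed at 0, as were 221 of 293 microRNA genes in that column. Mir98, whose mature sequence stands in 1 hairpin, was also at 0. Mir125b-2, which has a mature sequence found at 2 genes, was at 2468 FPKM, and its copy Mir125b-1 was at 0. Whole-number read pairs that match the deposited ratios gave 7 reads for Mirlet7b (9721 FPKM against 514080 in that table's lysate) and 11 for Mirlet7d (8193 against 106957). Mirlet7g had 7 reads (8694 against 603224 FPKM), Mirlet7e 3 (3117 against 36359) and Mirlet7i 2 (2777 against 230933), 30 reads in all.

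The single-copy members were 0.0120 to 0.0857 of the lysate. Mirlet7e had the highest ratio, 0.0857 (exact Poisson 95% interval 0.0177 to 0.250), then Mirlet7d with 0.0766 (0.0382 to 0.137). Mirlet7b had 0.0189 (0.00760 to 0.0390), Mirlet7g 0.0144 (0.00579 to 0.0297) and Mirlet7i 0.0120 (0.00146 to 0.0434). The interval of Mirlet7d lay above that of Mirlet7g, and overlapped those of Mirlet7b and Mirlet7i. All 5 single-copy members were at least 2-fold lower than the lysate, beside 59% of all features and 97.6% of microRNA genes.

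For a member listed at 0 the limit is 3 reads. That limit was 3483 FPKM for Mirlet7f-1, above its lysate value of 1916 in that table, so no difference was detectable there. It was 4359 FPKM for Mirlet7f-2 (at least 3.89-fold lower than the lysate) and 2965 FPKM for Mirlet7c-2 (at least 3.56-fold lower). These limits use the lowered lysate values of the numbered copies. The detected single-copy members were 11.7-fold (Mirlet7e) to 83.1-fold (Mirlet7i) lower than the lysate, beyond these limits. The values at 0 therefore do not set the numbered copies apart from them.

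The MVH IP, the end point of the chromatoid body purification, held all 8 members. Mirlet7g was highest at 122639 FPKM, rank 17 of 214 microRNA genes, and Mirlet7b followed at 58635, rank 29. Mirlet7c-2 was at 48531, Mirlet7f-2 at 36901, Mirlet7f-1 at 26804, Mirlet7d at 25123, Mirlet7i at 20292 and Mirlet7e at 5858 FPKM. The family took 3.29% of microRNA FPKM there, against 5.77% in the lysate and 2.71% in the pellet. Relative to the lysate share each of the 8 members was lower, as were 63.2% of the 163 microRNA genes, whose median log2 ratio of shares was -0.45.

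Mirlet7d was the member nearest to its lysate share, at 0.240% against 0.255% (log2 ratio -0.09). Its direction turned under each of 3 other denominators, chosen after seeing the data, with log2 ratios of 0.11 to 0.19. Mirlet7g came next at 1.17% against 1.44% (-0.30). The f copies were at -0.56 and -0.59 and Mirlet7e at -0.67. Mirlet7b (-1.16), Mirlet7c-2 (-1.43) and Mirlet7i (-1.59) were lowest. Among the single-copy members Mirlet7g made up 52.7% of their summed FPKM in the MVH IP against 39.8% in the lysate, and Mirlet7i 8.73% against 16.1%. In the pellet Mirlet7g made up 49.3% and Mirlet7i 12.0%, and in the control IP 26.7% and 8.55%. Mirlet7d stood above Mirlet7i in the MVH IP (1.24 times), whereas in the lysate it was at 0.44 times Mirlet7i. The same ratio was 0.89 in the pellet and 2.95 in the control IP, where it rests on 11 and 2 reads. The smaller part of Mirlet7i and the higher ratio of Mirlet7d to it were therefore not particular to the MVH IP. The larger part of Mirlet7g was shared with the pellet. In the control IP, on 7 reads, the part of Mirlet7g was smaller than in the lysate.

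Against the control IP, all 5 single-copy members had a smaller share of microRNA FPKM in the MVH IP, and 3 of them lay below the control's counting interval. How many other microRNA genes lie below such an interval was not determined, so the count of 3 has no background. Of the 68 microRNA genes above 0 in the ACR IP and listed in the MVH IP, 86.8% had a smaller share in the MVH IP, so the members' count lies near the background. The 68 genes and the 5 members all have reads in the shallow ACR IP. That favours a larger share there, so neither count is a test. Mirlet7f-1, Mirlet7f-2 and Mirlet7c-2, at 0 in the ACR IP, went the other way, with 0.256%, 0.352% and 0.463% in the MVH IP. Mirlet7b held 0.559% in the MVH IP against 1.82% in the ACR IP (counting interval 0.731% to 3.75%), Mirlet7d 0.240% against 1.53% (0.765% to 2.74%) and Mirlet7e 0.0559% against 0.583% (0.120% to 1.70%). Mirlet7g, with 1.17% against 1.63% (0.654% to 3.35%), and Mirlet7i, with 0.194% against 0.520% (0.0629% to 1.88%), lay within the control's interval. When shares were taken over the microRNA genes whose lysate ratio was above 1.5, a choice made after seeing the data, Mirlet7b too lay within it (0.849% against 0.751% to 3.85%) and Mirlet7g was higher in the MVH IP (1.77% against 1.67%). Marker microRNAs differed between the same columns, with the vessel wall list (3 of 3 listed in both) at 1.39% in the MVH IP against 9.05% in the ACR IP and Mir451 of the red cell list at 0.228% against 2.65%. Mir202, of the gonadal soma, was at 0.177% against 0.442%, and the germ cell list at 29.5% against 19.9%. Within that list Mir34c (23.6% against 14.6%) and Mir34b (4.04% against 1.08%) were higher, and Mir449a was lower (1.87% against 4.17%). The part of these marker microRNAs in the result was not tested. The interval covers the ACR IP reads alone, and the error of the MVH IP value is not known.

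In sorted round spermatids Mirlet7c-2 was the highest member at 51317 FPKM, rank 19 of 259 microRNA genes, above Mirlet7b at 34138 and Mirlet7g at 31975. Mirlet7f-2 was at 24831, Mirlet7f-1 at 17982, Mirlet7i at 4782, Mirlet7d at 3455 and Mirlet7e at 2286 FPKM. The numbered copies held 2.13% of microRNA FPKM, close to the 2.15% of the lysate, and the single-copy members 1.73% against 3.62%.

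The groups did not overlap in the ratio of round spermatid to lysate share. The numbered copies were at log2 ratios of -0.11 (Mirlet7c-2), 0.08 (Mirlet7f-1) and 0.11 (Mirlet7f-2), and the single-copy members at -0.70 (Mirlet7b), -0.78 (Mirlet7e), -0.99 (Mirlet7g), -1.71 (Mirlet7d) and -2.43 (Mirlet7i). Over microRNA genes with a lysate ratio above 1.5 the ratio of Mirlet7c-2 turned to 0.044. Of the numbered copies, Mirlet7f-1 and Mirlet7f-2 share reads and count as 1 measurement. The median of the 163 genes was -0.80, and 66.3% of them were below 0. How other microRNA genes with and without copies divide in this ratio was not tested. The copy pairs Mir26a-1 and Mir26a-2 (-1.14 and -1.16) and Mir125b-1 and Mir125b-2 (-1.17 and -1.14) lay with the single-copy members. These pairs were picked for profiles near the single-copy members, so they give no background for the split. Mirlet7a-1 (-0.05), Mirlet7a-2 (0.00) and Mirlet7c-1 (-0.07) lay with the numbered copies, and Mir98 (-1.03) with the single-copy members. Since reads of the copies cannot be assigned to 1 gene, this split is also one between mature sequences: let-7a, let-7c and let-7f on one side, and let-7b, let-7d, let-7e, let-7g, let-7i and miR-98 on the other.

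Of the genes beside each other on chromosome 13, Mirlet7f-1 was 5.20 times Mirlet7d in round spermatids, against 1.51 times in the lysate and 1.07 times in the MVH IP. Of those on chromosome 15, Mirlet7b was 0.67 times Mirlet7c-2, against 1.21 times in the MVH IP and near equality in the lysate. Reads of let-7f-5p and let-7c-5p also match copies at other loci, so these ratios do not measure 1 locus alone.

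Marker microRNAs also differed in this column, and their part in the result was not tested. The germ cell list (Mir34b, Mir34c and Mir449a) was at 5.83% of microRNA FPKM against 24.7% in the lysate, with 3 of 3 genes lower. Of the red cell list, Mir451 was at 0.0230% against 1.91% and Mir144 was listed at 0 against 0.120%. The gonadal soma microRNA Mir202 was at 0.184% against 1.10%. The vessel wall list (Mir143, Mir145 and Mir126) was at 1.35% against 1.76%, with Mir145 higher (0.385% against 0.185%). Mir184 alone took 18.7% of the column. In such bulk samples fewer cells of a type and less RNA per cell cannot be told apart.

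The MVH IP and the round spermatids thus differed by member. The share in the MVH IP was 3.07 times that in round spermatids for Mirlet7d, 1.79 times for Mirlet7i and 1.62 times for Mirlet7g. For Mirlet7e it was 1.08 times. Round spermatids had the larger share for Mirlet7b (1.38 times), Mirlet7f-1 and Mirlet7f-2 (both 1.59 times) and Mirlet7c-2 (2.50 times). All numbered copies were on that side, and 4 of 5 single-copy members on the other. Of the 163 microRNA genes, 36.8% had the larger share in round spermatids. Scaling either column by 1 factor would leave this order as it is.

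**Figure D4:**
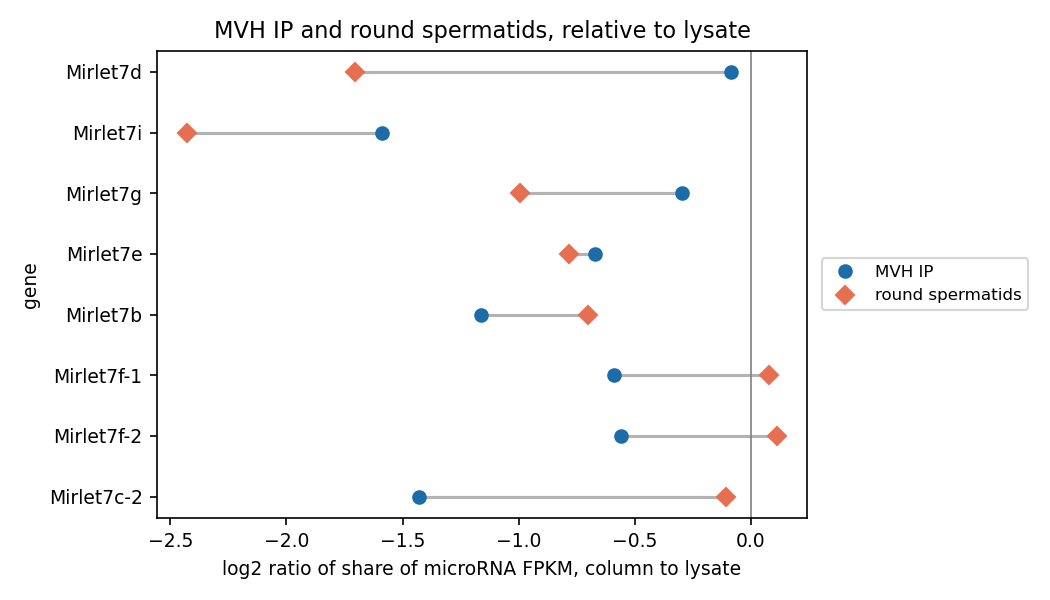
log2 ratio of the share of microRNA FPKM to that in the lysate for each of the 8 members, in the MVH IP (circles) and in round spermatids (diamonds), joined by a line; each point is 1 column value. Mirlet7d spans the widest gap, from -1.71 in round spermatids to -0.09 in the MVH IP, and Mirlet7c-2 the widest in the other direction, from -0.11 to -1.43.

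The genes most like the single-copy members were sought over 4 columns (supernatant, pellet, MVH IP and round spermatids), by the root mean square distance of log2 share ratios to the single-copy median profile. The nearest 5 of 151 genes outside the family were Mir878 (distance 0.39), Mir26a-1 (0.43), Mir26a-2 (0.43), Mir125b-2 (0.44) and Mir125b-1 (0.44), beside a median of 1.30. The Mir26a and the Mir125b genes are copy pairs and count as 1 profile each. The single-copy members themselves lay at 0.12 (Mirlet7e) to 0.86 (Mirlet7i).

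microRNA genes known to sit beside let-7 genes were Mir99b and Mir125a beside Mirlet7e, Mir99a beside Mirlet7c-1, and Mir100 and Mir125b-1 on the stretch of Mirlet7a-2, with Mir125b-2 near Mirlet7c-1. None of these 6 was 2-fold different in the supernatant, where 15.5% of microRNA genes lay 2-fold or more above the lysate (7.16% of all features) and 12.7% lay as far below it (5.42%). All 6 were at least 2-fold lower in the pellet, as were 93.4% of microRNA genes. In round spermatids Mir99b had 0.0167% of microRNA FPKM against 0.166% in the lysate, while Mir125a had 0.854% against 0.469%. Mirlet7e, between them on chromosome 17, had 0.0517% against 0.0889%. Mir99a had 0.0318% against 1.88%, whereas Mirlet7c-1, whose let-7c-5p reads also match Mirlet7c-2, had 1.21% against 1.27%.

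Small RNA on genes of let-7 production and control was sparse. Of 26 names searched, 4 were listed in the supernatant table and none of them was 2-fold different. Eif2c2, which encodes the Argonaute protein AGO2, was at 43.3 FPKM in the supernatant against 40.6 in the lysate (log2 ratio 0.09, SE 0.040). In the pellet it was at 22.3 against 97.0 (-2.07, SE 0.082), near the median of all features there, -2.20. It was at 56.1 in the MVH IP and at 40.3 in round spermatids, and was listed at 0 in the shallow ACR IP against 66.5 in the lysate beside it. Dgcr8, the RNA-binding partner of Drosha, was at 3.70 against 3.25 in the supernatant and at 0.631 against 7.77 in the pellet (-2.43, SE 0.52). The third gene listed in the pellet table, Eif2c4, which encodes AGO4, was near its lysate level of 2.61 FPKM (log2 ratio 0.15, SE 0.29). Lin28a and Lin28b were not among the listed features.

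Of 17 textbook let-7 targets, 1 was listed in the supernatant table, and none in the pellet table. That gene was Nras, a small GTPase, at 1.31 FPKM in the supernatant against 1.49 in the lysate (log2 ratio -0.11, SE 0.26). In the ACR IP table Igf2bp2, an RNA-binding protein gene, was at 24.9 FPKM against 0.873 in the lysate, and Myc, a transcription factor gene, at 11.3 against 0.113. Both lysate values were below the minimum of 1 FPKM, so both genes were measured only through the ACR IP column. In the MVH IP table, which was scaled separately, Igf2bp2 was at 22.9 FPKM and Myc at 11.8. These are reads of small RNA on the gene, and whether they are fragments of its messenger RNA was not tested.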

How the data were processed

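Per the submitters' processing notes, TopHat, Cuffdiff and mm9 were used. Their versions, the gene models and how reads with more than 1 match were counted are not given in the sources used here. FPKM is the unit of all deposited tables, named in the header for round spermatids and taken elsewhere from Cuffdiff's column names and the values. Deposited p-values, q-values and a test statistic (a score with no fixed range) accompany the supernatant and pellet values. Left out was 1 column, of long RNA in the MVH IP table.

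The members and lists were chosen with earlier results of these data known. With 1 column per group no test between groups was made. Ratios are log2 of FPKM + 1, fraction over lysate of the same table, where at least 1 of both values reached 1 FPKM. MVH IP rows of 1 symbol were summed. Each counting SE is the log2 FPKM ratio divided by the authors' deposited test statistic. The worth of a read is the fraction to lysate ratio under which the largest number of features gave ratios of whole numbers (6 at most; log tolerance 2e-05): 509 supernatant features against 4 when moved by 1%, and 251 ACR IP features against 0. Supernatant reads follow from that worth and the SE, taken as Poisson. ACR IP reads are the 1 whole-number pair per gene within 1e-05 whose lysate number lay within 15% of that in the supernatant table. Limits of 3 reads use the single-copy members' FPKM per read. Intervals cover counting error only; reads without molecular identifiers are not independent molecules. The genes named were the members, the other let-7 genes, 3 fixed lists and the 5 nearest profiles. From the target list, 1 gene is not reported here and was left out of its counts. Steps were tested on simulated data. The tools were matplotlib 3.10.9, scipy 1.17.1, pandas 2.3.3 and numpy 2.4.6 under Python 3.11.15. Sequences are from RefSeq, GRCm38.p6; coordinates are the files', mm9. Alternatives were other pseudocounts, filters, centrings and denominators.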

Additional observations from a re-analysis of the deposited data

How the results depend on the processing

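No paired analysis was possible because each group has 1 column of values, and no replicate could be left out. Pseudocounts of 0.1 and 10 FPKM, no filter and a filter of 10 FPKM hardly moved the median log2 ratio of the 8 members. It stayed at 0.41 in the supernatant, at -5.46 to -5.45 in the pellet and at -6.25 to -6.24 in the ACR IP, which has no counting SE. The numbered copies, listed at 0 in the ACR IP, did move with the pseudocount there. Mirlet7f-1 went from -10.90 to -14.23 with 0.1 FPKM and to -7.59 with 10 FPKM, and Mirlet7f-2 and Mirlet7c-2 moved likewise. Centring on all features moved the median from -5.46 to -3.26 in the pellet and from -6.25 to -3.55 in the ACR IP. Centring on microRNA genes gave 0.20 in the supernatant (0.41 without), -0.80 in the pellet and 4.16 in the ACR IP. That centring turned the sign of Mirlet7b (-0.11), Mirlet7i (-0.11) and Mirlet7c-2 (-0.15) in the supernatant, of Mirlet7d (0.27) in the pellet, and in the ACR IP of Mirlet7b (4.68), Mirlet7d (6.70), Mirlet7e (6.86), Mirlet7g (4.29) and Mirlet7i (4.03). The microRNA median of the ACR IP, -10.40, is set by genes listed at 0. The ACR IP median was -5.72 over the 5 single-copy members, and -3.63 with members listed at 0 put at the limit of 3 reads. The family's share of microRNA FPKM in the MVH IP was 3.29%, 4.19% over microRNA genes listed in all 5 tables and 5.14% without the 3 highest genes. In round spermatids it was 3.86%, 3.57% of all features, 4.17% over microRNA genes listed in all 5 tables and 5.58% without the 3 highest. The log2 gap between single-copy members and numbered copies in the lysate ratio was 5.60, and 5.73 with the other let-7 genes. Alternatives without the 3 highest genes, with a lysate ratio above 1.5, for the shares of single members and for the single-copy median were chosen after seeing the data. Over microRNA genes listed in all 5 tables, without the 3 highest genes, and over genes with a lysate ratio above 1.5, the log2 ratio of MVH IP to lysate share of Mirlet7d turned from -0.09 to 0.19, 0.11 and 0.12. Over the last set the round spermatid to lysate ratio of Mirlet7c-2 turned to 0.044 and the MVH IP to ACR IP ratio of Mirlet7g to 0.087. The direction of the other members in these comparisons of shares did not turn. Depth limits the ACR IP values, with 2 to 11 reads for each single-copy member.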
